A study of Mus musculus with 2 samples.

Results

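Retinal pigment epithelium (RPE) cells were taken from single-cell libraries of mouse retina by a rule on measured RNA. Droplets were chosen by their UMI counts: a droplet was a member when it held at least 1500 unique molecular identifiers (UMIs), under 10% of them mitochondrial, when at least 0.5% of its spliced and ambiguous UMIs came from Rpe65, Rgr, Rdh5, Dct, Ttr, Pmel, Col8a1, Col9a3 and Gpc3 together, and when it held under 5 UMIs of the microglial genes C1qa, C1qb, C1qc and Tyrobp. The rule took 177 of 3715 kept control droplets (4.76%, 95% exact binomial interval 4.10 to 5.50%) and 323 of 5970 light damage droplets (5.41%, 4.85 to 6.01%), which is 500 of 9685 in all. The intervals of the 2 shares overlapped. The 9 genes chose the droplets, so their levels against other droplets are a description.

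Both groups were mice of 6 to 9 weeks, labelled WT, that had spent 18 h in complete darkness. The light damage group then received white light of 5000 lx for 30 min and recovered for 6 h in dim light, while the control group received no light. All mice carried 2 floxed Tgfbr2 alleles without a Cre, which leaves the gene functional, on a Balb-C/CD1 background,, and both RPE65 alleles were of the L450 form. Males and females were used. The pools differed in their mix of sexes, as seen in genes among Xist, Tsix and the Y-linked genes. This mix cannot be told apart from light damage here. Retinae of 3 to 5 mice were pooled per condition and gave 1 library each, so neither group has a replicate. No p-values are printed, and intervals cover counting error alone and not the spread between mice or libraries.

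The RPE is a single layer of epithelial cells between the photoreceptors and the choroid. It regenerates the visual chromophore in the visual cycle, takes up shed outer segment tips, moves ions, glucose and lactate between blood and retina, and forms part of the blood-retina barrier. The retinae, not the eyecups, were digested here, so these droplets are the RPE cells that stayed with the retina when it was dissected. The background strains are albino, and melanin is not made although the melanosome genes are transcribed.

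The summed spliced and ambiguous UMIs were 766887 in the control RPE droplets and 2512079 in the light damage RPE droplets, with medians of 2551 and 5983 total UMIs per droplet. No barcode was shared between the RPE droplets of the 2 libraries, although 7 were shared among all kept droplets. Levels are given as CPM, the UMIs of a gene scaled to a common total of all genes, and a level of 3 UMIs corresponds to 3.91 CPM in control and 1.19 CPM in light damage, and 3 UMIs stood in for a count of 0 wherever a bound was formed. RNA of rods was present in these droplets and differed between the libraries. A set of 6 rod genes, which includes Pde6g and Gngt1, made up 1.61% of the control and 0.607% of the light damage RPE sum, against 10.2% and 6.19% in all other kept droplets, and reached at least 2% in 61 control and 42 light damage RPE droplets. From these genes the share of free RNA in the RPE droplets was estimated as 16.1% in control and 7.86% in light damage.

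**Figure D1:**
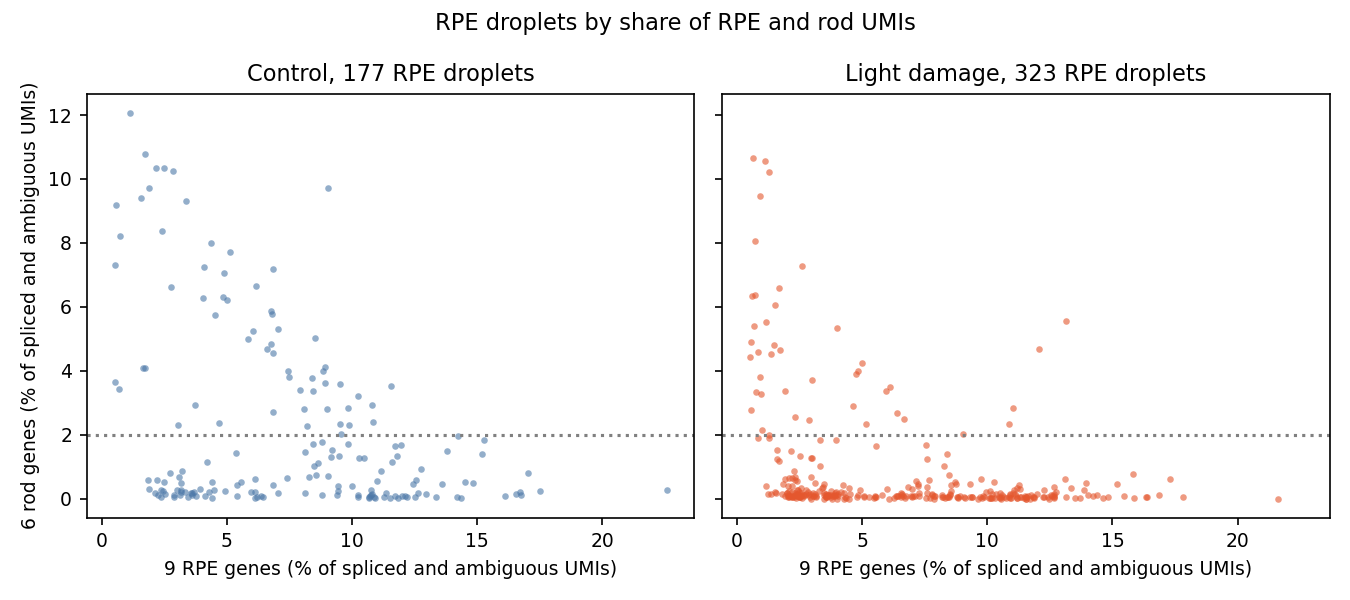
Each point is a droplet of the control (177) or light damage (323) library, with the share of UMIs from the 9 RPE genes on the x axis and from 6 rod genes on the y axis, and the dotted line at 2% rod genes. Droplets on or above the line number 61 in control and 42 in light damage.

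At the edge of the rule, 5 control droplets had an RPE gene share of 0.5 to 1% and 47 had 0.1 to 0.5%, the highest of these at 0.46%. In light damage the numbers were 14 and 160. The median share of rod genes was 7.31% just inside and 8.89% just outside the threshold in control, and 4.74% and 3.64% in light damage, so droplets near the threshold held much rod RNA.

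Markers that the rule did not use were in place. Lrat and Stra6, which esterify and take up retinol, Slc16a8, the basolateral lactate transporter of the RPE, and Tyrp1, a melanosome enzyme, were among the 15 genes of largest ratio to all other droplets, with Slc16a9, Thbs1, Sult1c1, Enpp2, Pon1, Ptgds, Iqgap2, Slc7a10, Atp1b1, Ermn and Slc6a13. Lrat stood at 1994 CPM in RPE droplets and 0.445 CPM in the other control droplets, and at 2124 and 3.24 CPM after light damage. Slc16a8 stood at 2764 against 0.623 CPM in control and at 2181 against 3.38 CPM after light damage. The other droplets held more UMIs of these genes after light damage, as did the free RNA, in which the 9 rule genes made up 0.324% in control and 1.30% in light damage. Some genes commonly used for RPE were at or near 0: Best1 and Serpinf1 had no UMI in control and 1 and 2 UMIs in light damage, and Cldn19 and Cd36 had none in either library. Marker lists of other cells ranged widely. The 7 Müller glial markers summed to 1059 CPM in control and 1416 CPM in light damage, of which Glul made up 987 and 1270 CPM, and Aqp4 and Gpr37 had no UMI in either library. The 9 bipolar and amacrine markers summed to 321 and 328 CPM, most of it from Slc6a9 and Trpm1, with 5 of the 9, Grm6 among them, at 0 in both. The 6 fibroblast markers summed to 0 and 1.99 CPM, the 6 neutrophil and monocyte markers to 0 in both, the 5 endothelial markers to 6.52 and 13.1 CPM, the 7 cone markers to 43.0 and 23.9 CPM and the 8 microglial markers to 78.2 and 57.3 CPM, in control and light damage.

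The comparison of light damage with control asked how RPE transcripts differed 6 h after the exposure. A gene was called when the 95% interval of its log2 ratio lay wholly past a 2-fold difference, among the 6765 genes with at least 50 UMIs over both libraries. By this rule of size 226 genes were higher (3.34% of genes tested) and 60 were lower (0.887%), and the median gene differed by 0.05 on the log2 scale. The called genes include 3 that were Xist, Tsix or Y-linked. A gene with no control UMIs can pass the minimum only because it is high after light damage, so counts of called members describe these libraries and support no more. The largest differences included higher levels of acute-phase, cytokine, adhesion and transcription factor genes, and lower levels of Insig1.

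The 3 genes of largest difference are secreted acute-phase proteins, and none had a single UMI in any control RPE droplet. Serpina3n, an inhibitor of serine proteases, had 1858 UMIs or 740 CPM after light damage (Poisson interval 706 to 774), at least 189-fold higher when 3 UMIs stand in for the control count, and the log2 interval with counting error started at 7.26. Ptx3, a soluble pattern recognition protein, had 1025 UMIs or 408 CPM, and Lcn2, which binds iron-carrying siderophores, had 768 UMIs or 306 CPM. In the other light damage droplets the same genes stood at 5.78, 2.71 and 18.4 CPM. Lcn2 was higher in the 29 droplets with at least 0.5% of UMIs from Müller glial genes, at 1195 CPM, where Serpina3n stood at 195 CPM. Of the 16 listed acute-phase genes only these and A2m reached 50 UMIs, and A2m was at 885 and 1645 CPM, a log2 ratio of 0.89 (0.78 to 1.01).

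To show the sequence context of this response, the RefSeq promoter windows (250 bases before to 50 after the annotated start, GRCm38.p6) of these 3 genes and of Il6 follow, 5′ to 3′ on the strand of the gene. Capitals mark runs that match the letters TTGCNNAA (a C/EBP type run) or the letters GGG, any 2 bases and TTTCC (an NF-kB type run), on either strand.
Serpina3n (chr12:104406458-104406757, plus strand): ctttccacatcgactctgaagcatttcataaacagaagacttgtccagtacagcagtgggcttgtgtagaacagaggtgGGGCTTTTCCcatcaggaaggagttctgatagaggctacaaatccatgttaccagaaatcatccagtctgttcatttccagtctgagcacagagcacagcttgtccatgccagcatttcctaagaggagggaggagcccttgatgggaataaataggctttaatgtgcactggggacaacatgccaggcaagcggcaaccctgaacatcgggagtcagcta
Ptx3 (chr3:66219637-66219936, plus strand): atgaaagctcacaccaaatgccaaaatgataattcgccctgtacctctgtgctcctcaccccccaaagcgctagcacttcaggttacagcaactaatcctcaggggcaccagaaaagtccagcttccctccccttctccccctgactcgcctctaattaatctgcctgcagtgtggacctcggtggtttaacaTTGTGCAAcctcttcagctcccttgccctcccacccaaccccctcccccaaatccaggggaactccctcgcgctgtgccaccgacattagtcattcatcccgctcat
Lcn2 (chr2:32387690-32387989, minus strand): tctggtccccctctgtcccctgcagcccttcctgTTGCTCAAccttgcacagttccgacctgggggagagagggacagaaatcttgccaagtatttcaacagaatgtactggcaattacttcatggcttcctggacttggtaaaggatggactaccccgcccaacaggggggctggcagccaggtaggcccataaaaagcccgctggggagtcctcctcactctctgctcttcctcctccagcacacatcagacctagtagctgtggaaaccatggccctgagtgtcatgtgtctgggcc
Il6 (chr5:30012864-30013163, plus strand): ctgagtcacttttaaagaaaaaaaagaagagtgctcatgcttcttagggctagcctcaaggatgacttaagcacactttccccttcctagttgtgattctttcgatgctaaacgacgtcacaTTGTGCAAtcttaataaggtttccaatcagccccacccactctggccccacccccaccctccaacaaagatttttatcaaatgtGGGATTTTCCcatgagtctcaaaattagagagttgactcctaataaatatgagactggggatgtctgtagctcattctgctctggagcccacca
The marked runs did not overlap. Of the 15 genes of largest increase 13 had a window, and 5 of them held the C/EBP letters (Gbp3, Il6, Lcn2, Mmp3 and Ptx3), which 10.8% of all 32851 windows hold. The NF-kB letters were in 2 (Il6 and Serpina3n) against 1.63% of all windows, and the letters TTCNNNGAA of a STAT element were in 1 (Icam1) against 8.30%. A gene counted when any of its windows matched, while the shares over all windows are per window, so the 2 are not alike. The C/EBP letters were also in 2 of 8 visual cycle genes and 2 of 10 cholesterol synthesis genes with a window. Of the 11 genes of largest decrease with a window, 1 held the C/EBP letters and 2 the STAT letters. The NF-kB letters were in none of these sets. A match describes letters and is not a bound site.

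The rest of the 15 genes of largest increase included cell surface and secreted proteins and transcription factors. Vcam1 and Icam1, adhesion molecules that leukocytes bind, had no control UMI and 377 and 254 UMIs after light damage (150 and 101 CPM). Mmp3, a matrix metalloproteinase, and Il6, a cytokine of the gp130 family, went from no UMI to 313 and 222 UMIs (125 and 88.4 CPM). Chil1, a chitinase-like secreted protein, was at 171 CPM in control and 3124 CPM after light damage, a log2 ratio of 4.19 (3.94 to 4.45). Gbp3, an interferon-inducible GTPase, had 2 and 800 UMIs, with a log2 ratio of 6.93 (5.07 to 9.98). The transcript 3930402G23Rik had 10 and 1974 UMIs. Gadd45b had 1 and 449 UMIs, Junb 3 and 695, Fos 6 and 658, Bcl3 0 and 190, and Cebpd 16 and 1378 UMIs. Several of these genes were higher in the other droplets as well. Junb stood at 21.9 and 522 CPM there in control and light damage, Fos at 5.08 and 212, and Cebpd at 5.3 and 144. Gadd45b stood at 8.64 and 96.3 CPM and Icam1 at 0.356 and 6.76 CPM. Droplets with Müller glial genes held 1065 CPM of Fos, 3016 of Cebpd, 1199 of Gadd45b and 332 of Icam1 after light damage. Gbp3 had a log2 ratio of 0.24 (-0.83 to 1.40) in the other droplets. There 3930402G23Rik and Mmp3 stood at 1.51 and 0.400 CPM after light damage.

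**Figure D2:**
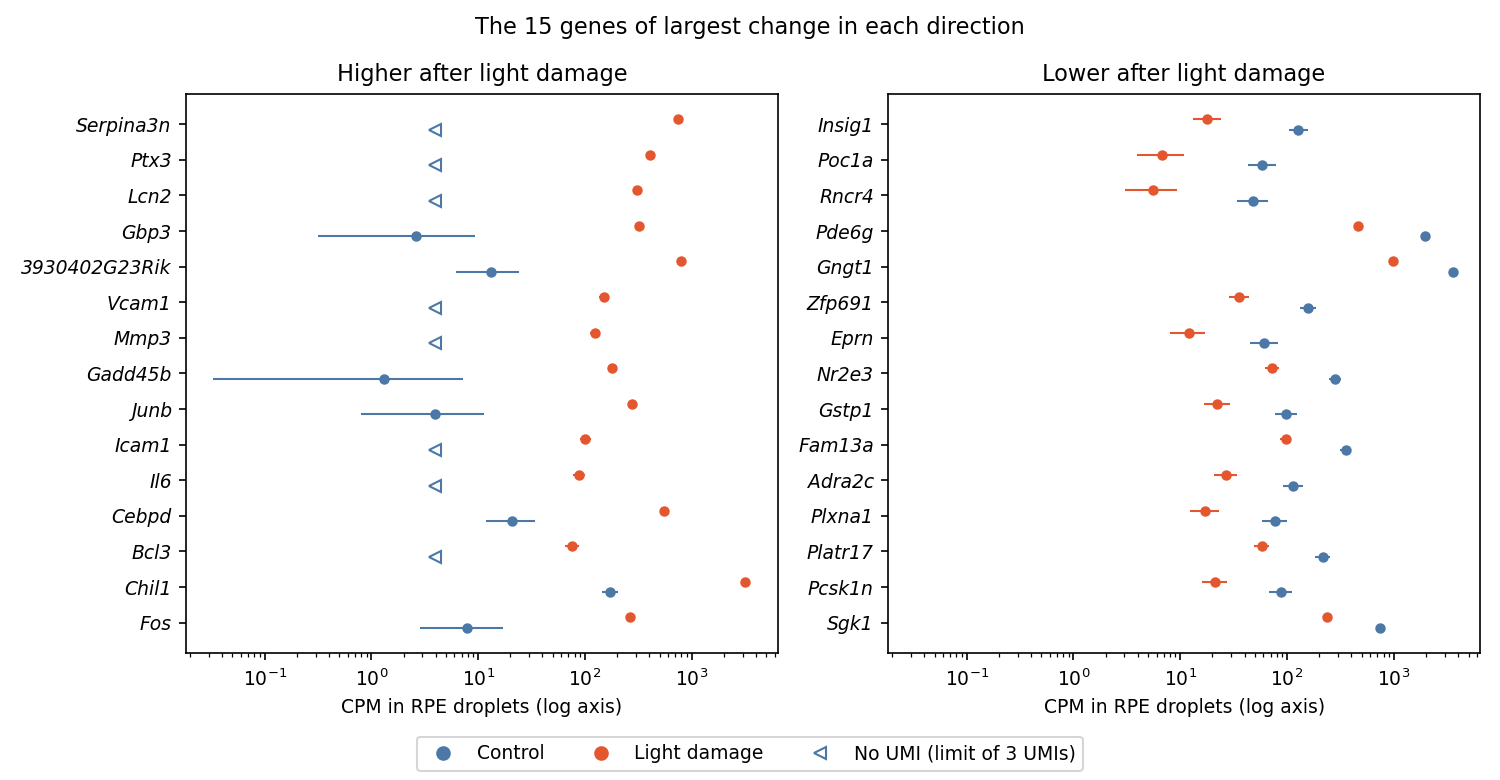
CPM in RPE droplets on a log axis for the 15 genes of largest difference in each direction, with 95% Poisson intervals, control in blue and light damage in orange. Open triangles mark genes with no UMI in control, placed at the level of 3 UMIs, and Serpina3n lies at 740 CPM after light damage.

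Of the genes of gp130 cytokine signalling, Osmr, Stat3, Socs3, Lifr, Cntfr and Il6 were higher. In this pathway IL-6 family ligands bind receptors that share gp130 (Il6st), JAK kinases phosphorylate STAT3, and SOCS3 feeds back on the receptor. Of 25 listed genes 17 reached 50 UMIs and 6 of these were called higher, with none lower, 3 ratios below 1 and a median log2 ratio of 1.30. Over all genes tested 3.34% were called higher. Osmr, the oncostatin M receptor, was at 200 CPM in control and 2259 CPM after light damage, a log2 ratio of 3.50 (3.27 to 3.74). Stat3 stood at 31.3 and 212 CPM. Socs3 had 1 control UMI and 256 UMIs after light damage, Cntfr 1 and 87, and Lifr 12 and 143. In the other droplets Socs3 was higher as well, at 0.178 and 26.8 CPM, and so was Osmr, at 2.40 and 18.1 CPM. Il6st, the shared subunit, was at 120 and 236 CPM, a log2 ratio of 0.98 (0.66 to 1.31) that did not meet the rule. Of the ligands other than Il6, Lif had 0 and 10 UMIs and Clcf1 0 and 8, and Osm had none.

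NF-kB genes were called in a larger share than the 3.34% of all genes tested. The list summed to 158 UMIs in control and 2625 in light damage. Some of its genes reached the minimum only through light damage, so the share is partly set by the minimum. Of 20 genes 16 reached 50 UMIs and 10 were called higher, with a median log2 ratio of 2.45. They were the subunits Rela, Relb and Nfkb2, the inhibitors and regulators Nfkbia, Nfkbib, Nfkbiz and Bcl3, the TNF receptor Tnfrsf1a, Birc3 and Icam1. Nfkbia, which holds NF-kB in the cytoplasm and is induced by it, went from 10.4 to 165 CPM, and Relb from 6.52 to 83.6 CPM. In the other droplets Nfkbia stood at 27.0 and 82.8 CPM. Chemokine and cytokine genes were called in 6 of the 7 that reached the minimum, out of 22 listed. Of the 22, 18 had no control UMI and could reach the minimum only by their light damage UMIs. Cxcl5 had no control UMI and 141 UMIs after light damage, Ccl2 0 and 84, Cxcl1 0 and 64, Cx3cl1 0 and 56, and Csf1, a growth factor of macrophages, 1 and 77. The Cxcl5 UMIs lay in 14 droplets, 36.9% of them in 1. Tnf, Ccl7, Cxcl9 and Cxcl12 had no UMI in either library. Il1b had 0 and 1.

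Among interferon and antigen presentation genes 4 of 11 tested were called higher: H2-K1 and H2-D1, heavy chains of class I MHC, Irf1 and Ifitm3. H2-K1 was at 23.5 and 269 CPM, while B2m, the light chain, differed by a log2 ratio of 0.28 (0.08 to 0.49). C/EBP and Krüppel-like factors had 4 of 9 called higher, with Cebpb at 36.5 and 265 CPM, Cebpd at 20.9 and 549 CPM, and Cebpa and Klf6 with 1 and 4 control UMIs. The metallothioneins Mt1 and Mt2, which bind zinc and copper, were at 5809 and 952 CPM in control and at 12541 and 4662 CPM after light damage, and Mt3 differed by 0.10 (0.04 to 0.17). Mt1 and Mt2 were higher in the other droplets by larger ratios, 3.66 and 4.76 on the log2 scale.

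**Figure D3:**
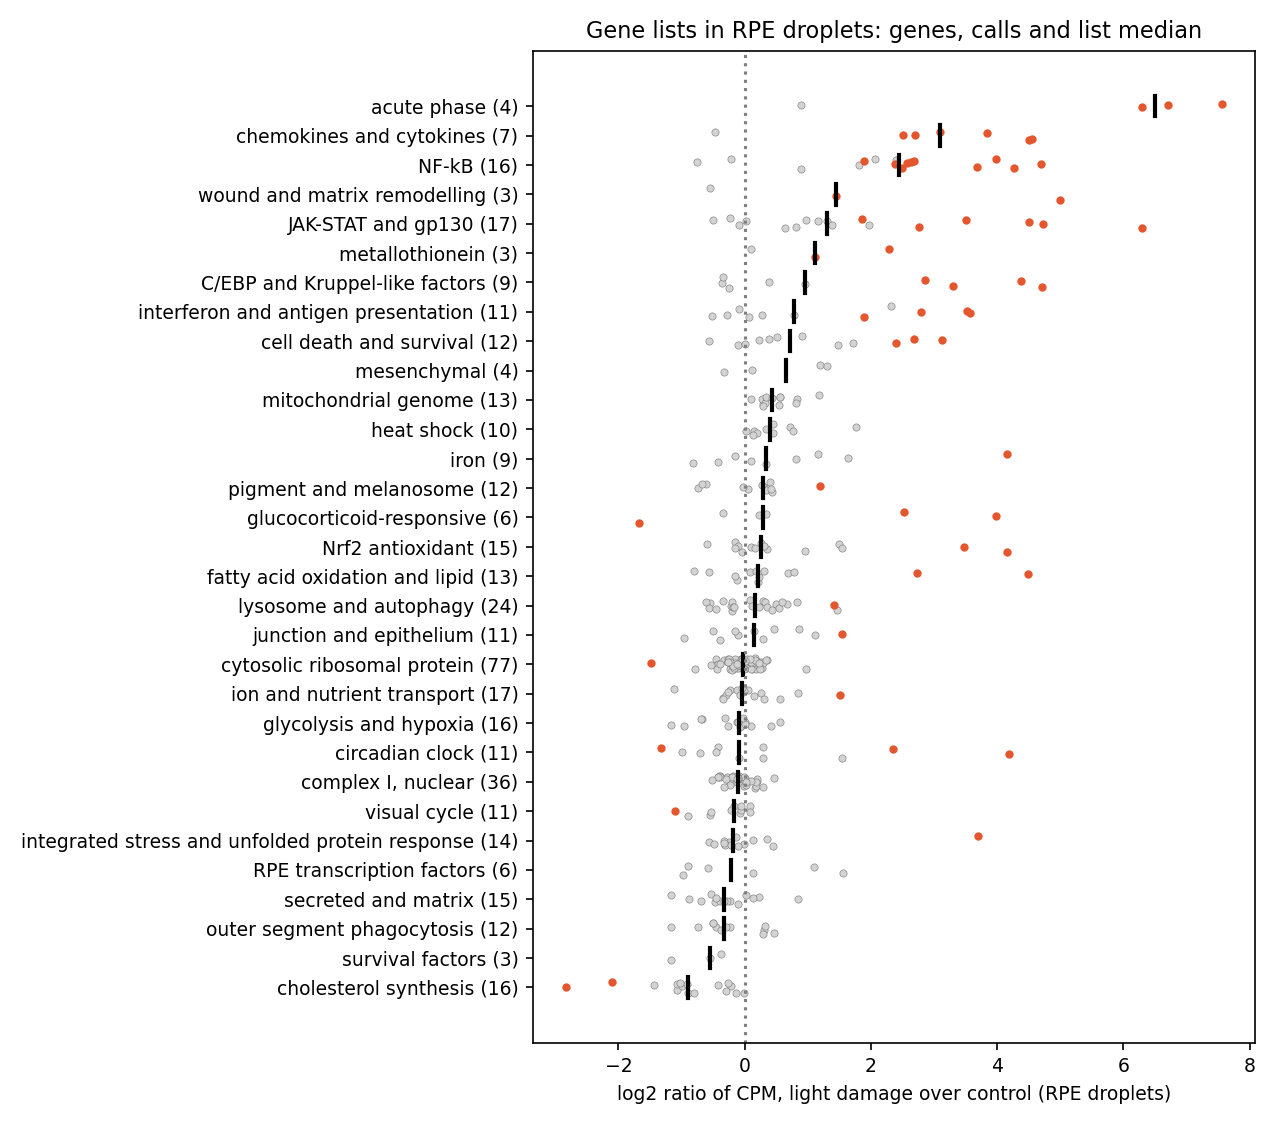
Log2 ratio of CPM, light damage over control, of every gene with at least 50 UMIs in lists with at least 3 such genes (number in parentheses), with called genes in orange, others in grey and the list median as a black bar. Genes with no control UMIs are drawn at their bound against 3 UMIs, and medians run from -0.90 (cholesterol synthesis) to 6.50 (acute phase).

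The lists that follow held a smaller share of called genes than the NF-kB, gp130 and chemokine lists. Over all 6765 genes tested 3.34% were called higher and 0.887% lower. Of 15 Nrf2 target genes tested, Hmox1 (6.52 and 116 CPM), which degrades heme, and Osgin1 (2.61 and 29.1 CPM) were called, while Nqo1, Gsr and Me1 differed by -0.04 (-0.36 to 0.29), -0.60 (-1.03 to -0.16) and -0.15 (-0.40 to 0.10). Of 14 integrated stress and unfolded protein response genes only Atf3 was called, with 2 and 85 UMIs, and Hspa5, the ER chaperone, differed by -0.11 (-0.24 to 0.02). None of the 10 heat shock genes tested met the rule, though all 10 had ratios above 1 with a median of 0.39, and Hsp90ab1 was at 460 and 782 CPM. None of the 36 nuclear complex I genes and 1 of 77 cytosolic ribosomal protein genes (Rpl9, lower) were called. The 13 protein-coding genes of the mitochondrial genome all had ratios above 1 (median 0.43) without a call. Their sum differed in opposite directions in the ranges of Ttr described below. Of 12 genes of cell death and survival Bid, Ripk1 and Birc3 were called higher, and of 24 lysosome and autophagy genes Sqstm1, an autophagy receptor, at 92.6 and 246 CPM.

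Of the lipid genes Plin2 and Angptl4 were higher, and of the cholesterol genes Insig1 was among the 2 called lower. Plin2, which coats lipid droplets, was at 79.5 and 525 CPM, a log2 ratio of 2.72 (2.35 to 3.12), and Angptl4, an inhibitor of lipoprotein lipase, at 14.3 and 323 CPM, the only calls among 13 lipid genes tested, whose median was 0.21. All 16 cholesterol synthesis genes tested had ratios below 1, with a median log2 ratio of -0.90. These genes are induced by SREBP2 when cell cholesterol is low, and INSIG1 retains the SREBP2 complex in the ER. Of the 16, 2 were called lower, among them Insig1. Insig1 was at 128 CPM (104 to 156) in control and 17.9 CPM (13.1 to 24.0) after light damage, a log2 ratio of -2.83 (-3.38 to -2.31). It ranked first among lower genes by the end of the interval nearest 0, while Poc1a and Rncr4 had lower ratios. Sqle differed by -1.43 (-2.05 to -0.81), Hmgcs1 by -0.99 (-1.35 to -0.63) and Msmo1 by -0.91 (-1.17 to -0.65), none of them wholly past 2-fold. With rod-rich droplets left out the list median was -1.07, and with free RNA subtracted -1.05. Over all other droplets the log2 ratio of Insig1 was 0.46 (0.13 to 0.80), while in the droplets with Müller glial genes it was at 100.1 CPM in control (12 UMIs) and 30.5 CPM after light damage (8 UMIs), a log2 ratio of -1.71 (-3.21 to -0.30).

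The visual cycle showed a difference in Rpe65 above all. Of its 11 genes only Rpe65, the isomerase that makes the 11-cis retinoid, was called, at 3898 CPM (2989 UMIs) in control and 1807 CPM (4540 UMIs) after light damage, a log2 ratio of -1.11 (-1.18 to -1.04). Rpe65 is also a gene of the rule. Rdh10 differed by -0.89 (-0.98 to -0.81) and Rgr, the RPE opsin, by -0.53 (-0.57 to -0.49). Lrat differed by 0.09 (0.01 to 0.17), Rlbp1, the retinaldehyde carrier, by -0.06 (-0.14 to 0.02), Stra6 by 0.09 (-0.02 to 0.20) and Rdh5, the 11-cis retinol dehydrogenase, by -0.17 (-0.23 to -0.12). By counting error alone these intervals lay apart from that of Rpe65. Rgr and Rdh5 are also genes of the rule. In droplets of at least 25% unspliced UMIs, of which control has 10, Rpe65 was at -1.54, Rgr at -2.27 and Rdh10 at -1.35. There Rdh5 was at -1.09, Rlbp1 at -0.95, Lrat at -0.94 and Stra6 at -0.64.

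Among 12 pigment genes tested, Dct alone was called, and it is also a gene of the rule. Dct, dopachrome tautomerase, was at 2561 CPM in control and 5883 CPM in light damage, with a log2 ratio of 1.20 (1.13 to 1.27), while Tyr, tyrosinase, stood at 119 and 123 CPM and Tyrp1 at 446 and 438 CPM. None of 12 genes of outer segment uptake was called. Mertk, the receptor for engulfment, differed by -0.50 (-0.84 to -0.16), Itgav by -0.46 (-0.55 to -0.36) and Itgb5 by -0.38 (-0.75 to -0.01). Of 17 transport genes Slc12a2, the Na-K-Cl cotransporter, was called higher (545 and 1550 CPM), and Kcnj13, the RPE potassium channel, differed by 0.05 (-0.07 to 0.16). Of 11 junction and epithelial genes Cdh3, P-cadherin, was called higher (180 and 527 CPM). Of the transcription factors of the RPE none met the rule: Otx2 differed by -0.97 (-1.17 to -0.77), Mitf by -0.58 (-0.99 to -0.16) and Sox9, at 378 and 811 CPM, had an interval of 0.92 to 1.28. No gene of 15 secreted and matrix genes was called, and Vegfa, which the choroidal capillaries depend on, differed by -1.17 (-1.44 to -0.89). In the clock list Bhlhe40 and Nfil3 were called higher and Dbp lower (245 and 97.5 CPM).

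**Figure D4:**
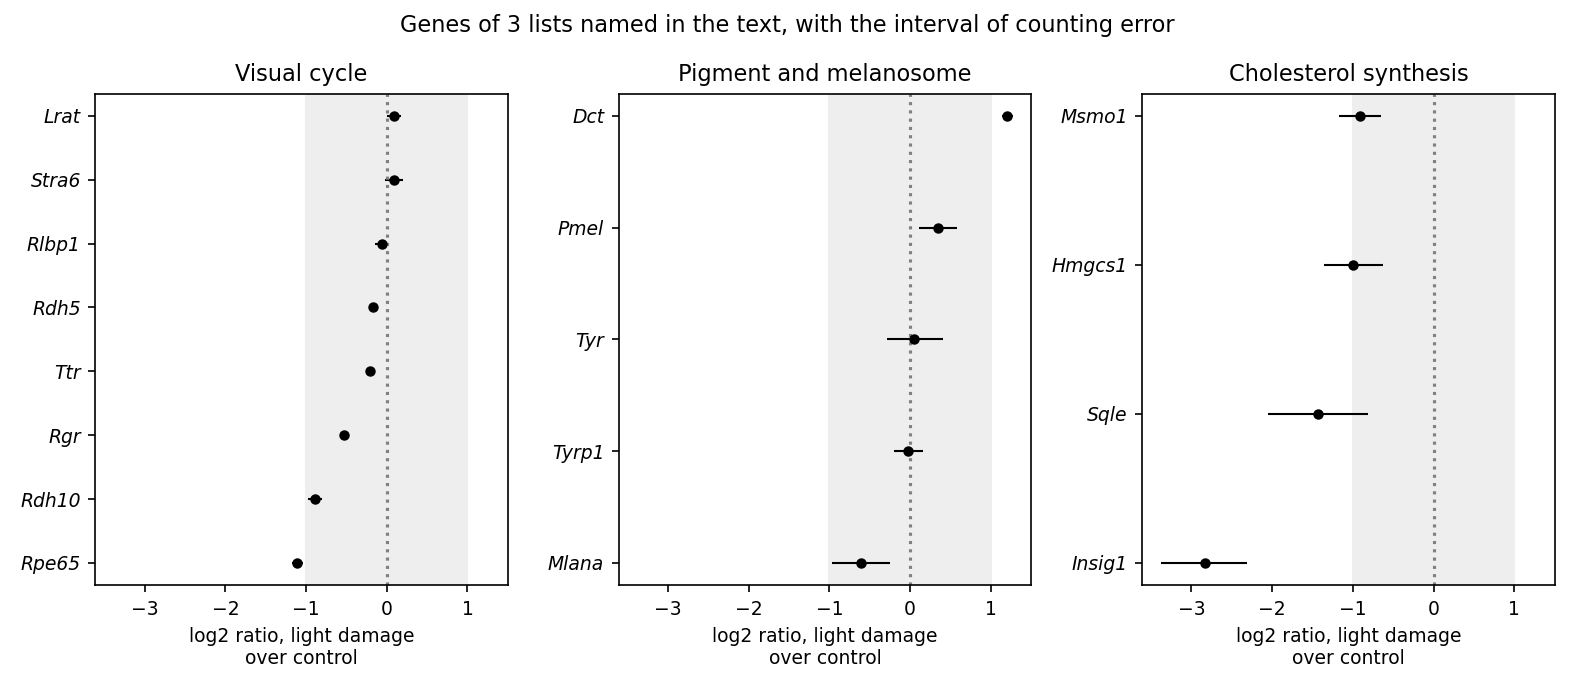
Log2 ratio of CPM, light damage over control, for the visual cycle, pigment and cholesterol synthesis genes named in the text, with 95% counting intervals and differences under 2-fold shaded. Rpe65, Dct and Insig1 lie wholly outside the shaded band.

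The 15 genes of largest decrease fell into those with more RNA in RPE droplets than elsewhere and those with more elsewhere. Poc1a, Rncr4, Pde6g, Gngt1, Nr2e3, Gstp1, Platr17 and Pcsk1n were at higher CPM in the other control droplets than in RPE droplets, for Pde6g, the rod phosphodiesterase inhibitory subunit, 11689 against 1942 CPM. They were lower in the library with the smaller share of rod RNA in RPE droplets. So was the rod marker list, of which all 10 genes had ratios below 1 and 7 were called lower. Its sum went from 17691 to 6930 CPM. These genes were also lower within the other droplets, with log2 ratios from -2.85 (Gstp1) to -0.92 (Pcsk1n). How much of their difference goes with rod RNA was not tested. In droplets under 2% rod genes the log2 ratio of Poc1a was -0.68 in place of -3.12, and that of Pcsk1n -0.71 in place of -2.05. That of Nr2e3 was -1.02 in place of -1.96, while Rncr4 was at -3.90, Pde6g at -1.68 and Gstp1 at -1.51. With free RNA subtracted Nr2e3 was at -0.35. The other 7 were Insig1, Zfp691, Eprn, Fam13a, Adra2c, Plxna1 and Sgk1, each at higher CPM in control RPE droplets than in the rest, and their log2 ratios lay between -2.79 and -1.77 in droplets under 2% rod genes. Fam13a was at 353 CPM in control and 96.7 CPM after light damage, and at 0.802 and 1.11 CPM elsewhere. Sgk1, a kinase induced by glucocorticoids that regulates sodium transport, was at 748 and 235 CPM, a log2 ratio of -1.67 (-1.84 to -1.50), and at 471 and 793 CPM elsewhere. Adra2c, an alpha-2 adrenergic receptor, was at 113 and 26.7 CPM.

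The response was uneven among the light damage RPE droplets. Of 323, 173 (53.6%) held a UMI of Serpina3n, Ptx3 or Lcn2, 36 (11.2%) held all 3, and 150 (46.4%) held none. Thinned to 1000 UMIs per droplet, 27.9% of 321 droplets still held a Serpina3n UMI and none of 172 control droplets did. Il6 was in 18 droplets (5.57%) and Mmp3 in 25 (7.74%), while Osmr was in 271 (83.9%) against 60 of 177 control droplets (33.9%). To compare like with like, droplets of at least 3000 UMIs and under 2% rod genes were set apart: 69 in control, and in light damage 89 with no UMI of the 3 genes, 49 with under 10 per 10000 UMIs and 85 with 10 or more. The classes were chosen after the values were seen and are ranges of a level, with 14 droplets between 7 and 13 per 10000. Median UMIs were 5672, 6729, 8771 and 8905.

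Some differences were present whether or not the acute-phase genes were seen, and others went with them. In the 89 droplets without acute-phase UMIs, Rpe65 was already at 1983 CPM against 4660 in control, Dct at 6448 against 2828, Insig1 at 19.8 against 126, Sgk1 at 335 against 795 and Hmgcs1 at 43.5 against 164.5 CPM. Cebpd (296 against 29.0 CPM), Osmr (814 against 234 CPM) and Junb (166 against 3.87 CPM) were higher there too. In the 85 droplets with the most acute-phase UMIs, Rpe65 (1749 CPM), Dct (5968 CPM) and Insig1 (15.1 CPM) stood near those levels. Osmr (3909 CPM) and Cebpd (801 CPM) were higher again, and Sgk1 (96.1 CPM) lower again. Icam1 and Il6 had no UMI in the 89 droplets and 231 and 219 in the 85. Chil1 was at 197 CPM in control, 312 in the 89 and 6568 in the 85. Rcan1, a calcineurin regulator named after its values were seen, was at 17.4, 19.8 and 795 CPM. The summed metallothioneins were at 11478, 13437, 21142 and 29631 CPM in the 4 classes from control upwards, and NF-kB genes at 203, 347, 766 and 1892 CPM.

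**Figure D5:**
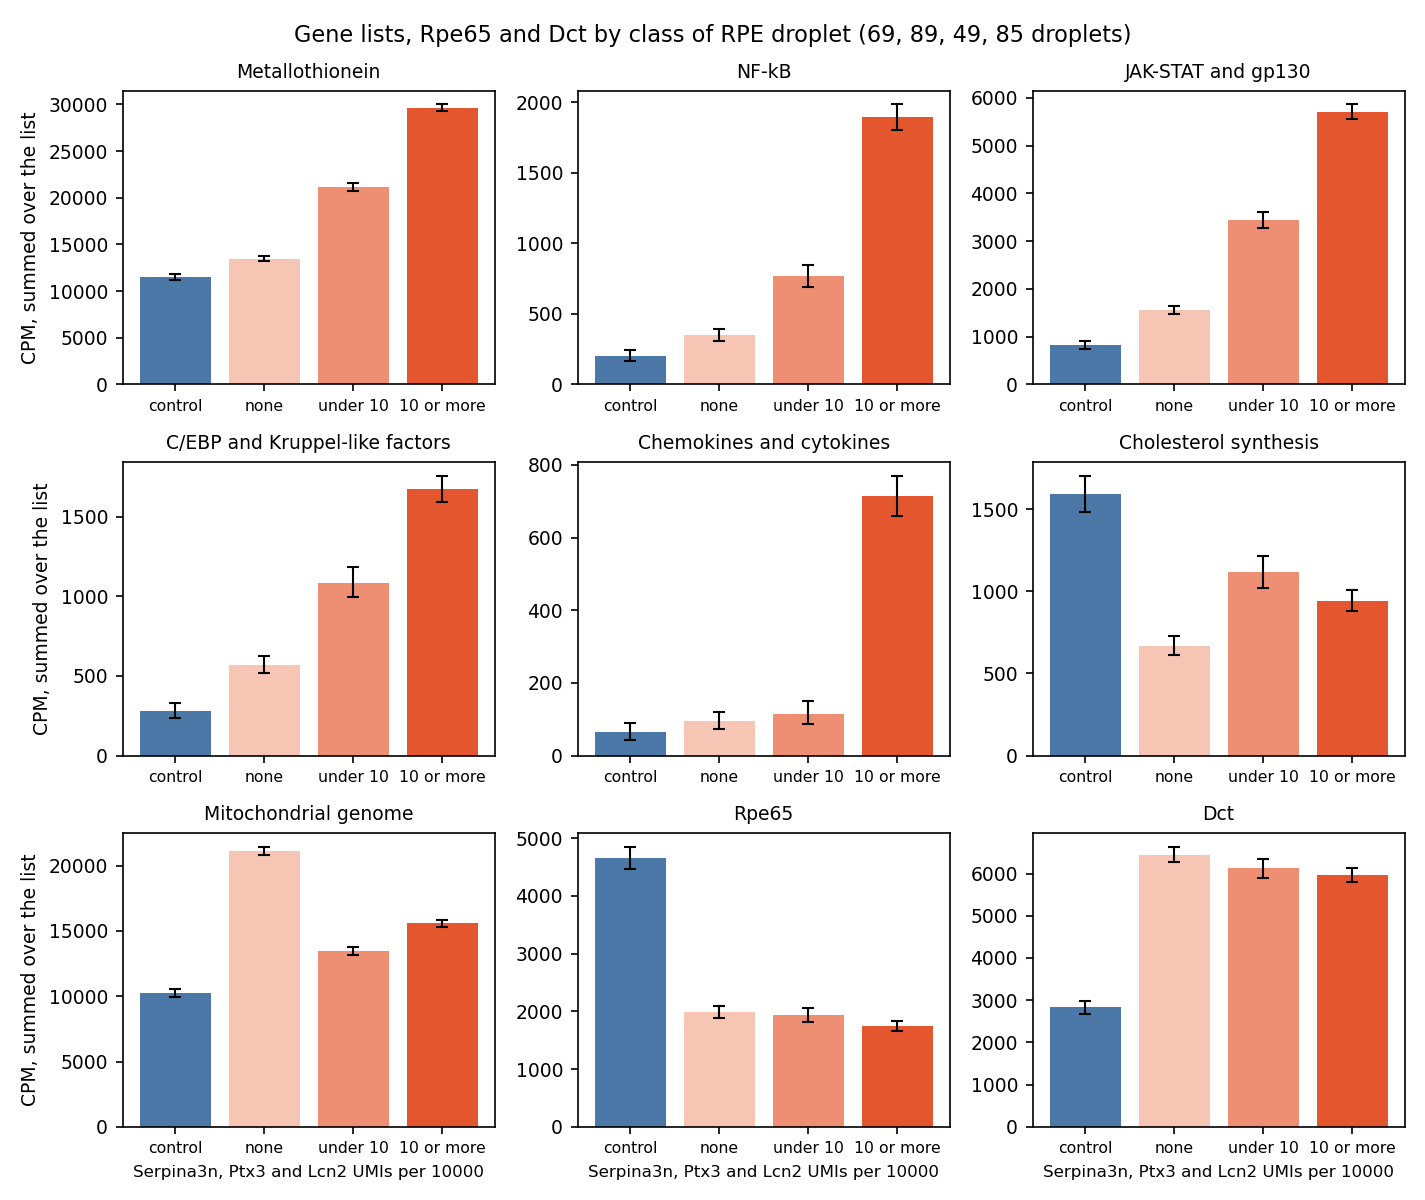
CPM of 7 gene lists, summed over their genes, and of Rpe65 and Dct in 4 classes of RPE droplet (69 control, then light damage droplets with no, under 10, and 10 or more Serpina3n, Ptx3 and Lcn2 UMIs per 10000), with bars from 0 and 95% Poisson intervals. Metallothionein and NF-kB sums step up across the light damage classes, whereas Rpe65 and Dct differ from control by a like amount in all 3.

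Pmel, a melanosome protein and a gene of the rule, was held by few droplets. The 17 control and 32 light damage droplets with the most Pmel UMIs held 97.3% of its UMIs in control and 94.9% in light damage, against 46.8% and 44.9% for Ttr. Among the light damage droplets of at least 3000 UMIs and under 2% rod genes 49 held Pmel and 174 did not. Trpm1 was at 378 CPM with Pmel and 47.3 CPM without, and Mlana at 252 and 45.0 CPM, the same order as in the 5 control droplets with Pmel (486 against 24.4 CPM, and 714 against 51.0 CPM). A UMI of Serpina3n, Ptx3 or Lcn2 was in 14 of the 49 with Pmel (28.6%, exact binomial interval 16.6 to 43.3%) and in 120 of the 174 without (69.0%, 61.5 to 75.7%), at medians of 8255 and 7843 UMIs. Cxcl5 had no UMI with Pmel and 141 without, but it was in only 14 of the 323 light damage RPE droplets. Of its UMIs 36.9% lay in 1 droplet, so this does not set the groups apart. Of the 5 melanocyte markers, Mlana, Kit and Sox10 were detected in RPE droplets of both libraries, and the list summed to 222 CPM in control and 139 CPM in light damage. Sox10, a neural crest transcription factor, was in 33 control and 69 light damage RPE droplets. Its level did not go with Pmel beyond counting error, at 29.9 CPM with Pmel and 49.1 CPM without it after light damage (log2 ratio -0.71, -1.65 to 0.11). Whether melanocyte RNA has a part in the Pmel pattern was not tested.

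A second kind of variation, in Ttr, ran through both libraries. In the same droplets Ttr, which carries thyroxine and retinol-binding protein, ranged from 38.5 to 2015 per 10000 UMIs in control and from 12.3 to 1618 in light damage. Under 250 per 10000 lay 14 of 69 control droplets (20.3%, 11.6 to 31.7%) and 84 of 223 light damage droplets (37.7%, 31.3 to 44.4%), and 4 and 10 lay between 200 and 300. Ttr is a gene of the rule and held the most UMIs of the rule genes in both libraries. The droplets were thus partly chosen by their Ttr level, so its range and these shares describe the chosen droplets only. In control droplets low in Ttr, Gm42418, a gene that overlaps ribosomal RNA sequence, was at 83460 CPM against 11242 in the rest, Lars2 at 2905 against 349, and the mitochondrial genome summed to 24973 against 7973 CPM, with Rpe65 at 6099 against 4438 CPM. Light damage droplets low in Ttr had Gm42418 at 51694 against 10902 CPM, and the mitochondrial genome at 15431 against 17654 CPM. Acute-phase UMIs were in 56 of the 84 (66.7%) and in 78 of 139 (56.1%).

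The differences between the libraries were looked at within each range of Ttr. Among droplets of at least 250 per 10000, Rpe65 was at 4438 CPM in control and 1676 CPM after light damage, Dct at 2894 and 7049 CPM, Insig1 at 109 and 19.0 CPM, Osmr at 217 and 1730 CPM and Chil1 at 212 and 2858 CPM. Among droplets under 250, Rpe65 was at 6099 and 2409 CPM, Dct at 2399 and 3760 CPM, Insig1 at 231 and 19.1 CPM, Osmr at 347 and 4385 CPM and Chil1 at 101 and 4966 CPM. The direction was the same in both ranges for these 5 genes, though Dct differed by less than 2-fold among droplets under 250. Rpe65 and Dct, like Ttr, are genes of the rule. The summed mitochondrial genome, at the values given above, was higher after light damage among droplets of at least 250 and lower among those under 250. Cdh3 was at 181 and 353 CPM and Slc12a2 at 608 and 1181 CPM among droplets of at least 250, under a 2-fold difference, and at 260 and 1038 CPM and 954 and 2901 CPM under 250, so neither was called within the first range. The same 2 genes differed with the acute-phase classes: Slc12a2 was at 646 CPM in the 89 light damage droplets without acute-phase UMIs, 654 CPM in the 69 control droplets and 2618 CPM in the 85 droplets with the most, and Cdh3 at 262, 192 and 780 CPM.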

How the data were processed

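RNA was measured with the droplet-based 10x 3′ v3.1 assay in 1 library per condition. The authors deposited raw UMI counts per gene and barcode, made with Salmon 1.10.1 and alevin 0.8.1 (alevin-fry) and with Cell Ranger 7.0.1 named in the submitters' processing notes, on the mouse build mm10, with spliced, unspliced and ambiguous counts apart and no barcode filter. The authors' own later steps of calling cells, marking doublets and removing ambient RNA are not in these counts, so the droplet sets here were rebuilt and can differ from theirs. Of 32285 genes, 32158 had a symbol.

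A gene's value was the sum of spliced and ambiguous UMIs over the RPE droplets, as CPM with a 95% exact Poisson interval, and ratios had the exact conditional binomial interval. Barcodes with fewer than 50 UMIs stood for free RNA. Members and gene lists were chosen with earlier results of these data known. Named genes were the 15 per direction with the interval end farthest from 0 on its near side, leaving out Xist, Tsix, Y-linked genes and genes of which 1 droplet held over 50% of a library's UMIs (Crispld2). The 15 identity genes needed at least 100 UMIs in each library. Ddit3 and Aldoa had no single matching symbol and were left out of their lists. Doublets were scored with scanpy 1.11.5 and left in the main set. Scripts ran in Python 3.11.15 with pandas 2.3.3, scipy 1.17.1, numpy 2.4.6 and, for plots, matplotlib 3.10.9.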

Additional observations from a re-analysis of the deposited data

Results flagged for a closer look

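Insig1, Zfp691 and Sgk1 were lower after light damage in RPE droplets and higher in all other kept droplets. The log2 ratios were -2.83 and 0.46 for Insig1, -2.15 and 0.44 for Zfp691, and -1.67 and 0.75 for Sgk1. In the droplets with Müller glial genes Insig1 had a log2 ratio of -1.71 (-3.21 to -0.30) and Sgk1 one of -0.37 (-1.32 to 0.62), and Zfp691 had 0 and 1 UMIs. With 1 library per condition the difference between the droplet sets was not tested.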

How the results depend on the processing

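No paired analysis was possible because each condition has 1 library. The control set of 177 RPE droplets became 324 with a minimum of 1000 UMIs, 77 with a minimum of 3000, 116 with under 2% rod genes and 124 with at least 250 Ttr UMIs per 10000. The light damage set of 323 became 255 with a minimum of 3000 UMIs, 285 with a marker share of at least 2%, 281 with under 2% rod genes and 177 with at least 250 Ttr UMIs per 10000. The last 2 limits, rod genes and Ttr, were chosen after the data were seen. The 226 higher genes became 142 with the Ttr limit, 436 with 1.5-fold calls and 1 in droplets of at least 25% unspliced UMIs, of which control has 10. The 60 lower genes became 37 with a minimum of 3000 UMIs, 100 in droplets under 25% unspliced, 8 in droplets of at least 25%, 36 without the top droplet of each gene, 130 with no minimum per gene and 195 with 1.5-fold calls. Among genes that were called and that the text names, the log2 ratio changed sign in the droplets of at least 25% unspliced for Platr17 (1.21), Pcsk1n (0.40), Cdh3 (-0.43), H2-K1 (-0.14), Nfkb2 (-0.79) and the rod gene Pdc (0.70), and with free RNA subtracted for Pdc (6.97). Among named genes that were not called, the sign changed for 12 in the first of these settings and for 8 with free RNA subtracted, Sag among the latter (3.99 in place of -0.96). The cause was not tested.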
